A study of Homo sapiens with 26 samples.

Results

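The comparison set tumors from mice given a CDK4 inhibitor for 3 days against tumors from mice given vehicle for 3 days. It covered 16 of the 26 libraries in the series, from 8 of its 13 mice, and all 13 mice entered the fit. The samples were chosen by their labels, not by any measured value. The tumors were ZR751 xenografts: cells of the human estrogen receptor-positive, HER2-negative breast cancer line ZR751 implanted under the skin of female NSG mice, which lack mature lymphocytes. Vehicle tumors came from 5 mice, numbered 1-2, 1-4, 1-5, 1-6 and 1-9. The text on the design calls this arm vehicle and the treatment label reads DMSO. Sensitive tumors, as the series title calls the arm treated for 3 days, came from 3 mice, numbered 6-4, 6-5 and 6-6. These mice were dosed orally with atirmociclib, 60 mg/kg given 2 times a day with 7 h between doses. Dosing began when tumors averaged 150 mm3, and tumors were taken 3 h after the last dose, at a labelled 72 h. All tumors derive from 1 cell line, the ages of the mice are not given in the sources used here, and RNA came from powdered pieces of frozen tumor, so the values are averages over many cells. Each mouse gave 2 libraries, A and B, which were averaged, and the mouse was the replicate.

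Atirmociclib inhibits cyclin-dependent kinase 4 (CDK4). With a D-type cyclin, CDK4 phosphorylates the retinoblastoma protein RB in the G1 phase of the cell cycle. Unphosphorylated RB holds back E2F transcription factors, which switch on genes of DNA replication. Its relatives p107 and p130, with the MuvB proteins, hold back the later genes of mitosis at a promoter element called the cell-cycle genes homology region (CHR). In estrogen receptor-positive breast cells, the estrogen receptor raises cyclin D1 and so feeds this switch, which is why CDK4 is a drug target in this disease.

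Values are TPM, the abundance of a gene's transcripts corrected for their length, a scale on which the entries of every library here added up to 999847 to 999881. The table holds no read counts, so sequencing depth is unknown and the precision comes from the spread between mice. Between 16914 and 17634 entries were above 0 in the 16 libraries. The A and B libraries of a mouse correlated across genes at 0.991 to 0.994, and every library was nearest to its own partner. The first principal component of the 8 mice held 52.2% of the variance and separated the groups, with scores of -24.5 to -16.8 in vehicle and 24.6 to 43.8 in sensitive mice. The second held 21.9% and set vehicle mouse 1-5 (-38.6) apart from vehicle mice 1-2 (18.6) and 1-6 (23.7). Breast epithelial identity was plain in all 8 mice: KRT8 was at 1774 to 4194 TPM, EPCAM at 343 to 436 TPM, CDH1 at 592 to 1034 TPM, FOXA1 at 198 to 237 TPM and ESR1 at 61.1 to 193 TPM.

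In the sensitive tumors, 445 of 14079 genes tested rose (3.16%) and 1767 fell (12.6%). A call means a Benjamini-Hochberg adjusted p under 0.05 in a limma fit with a mean-variance trend on log2(TPM + 1). All 13 mice of the series entered this fit, so the third group also shaped the filter and the estimate of the spread. With the vehicle and sensitive mice alone, 239 genes were called higher and 1270 lower. The falls were also the larger changes. A fall of at least 2 log2 units was seen in 131 genes and of at least 3 in 52, against 12 and 1 rises of these sizes. Log2 changes here are sensitive minus vehicle, with the SE of the fit, and they are given relative to the median fitted change of all genes, which was -0.07. On this scale the change of a gene near 1 TPM is understated. Falls were more frequent among abundant genes: 5.42% of genes under 5 TPM in vehicle tumors fell, against 21.8% of genes at 100 TPM or more. The split between rises and falls moved with the scaling. It was 771 and 1066 with median-of-ratios scaling (42.0% of calls higher, against 20.1%) and 930 and 984 with quantile normalization (48.6% higher), where the median fitted change was 0.03. The 3 sensitive mice lay on one side of the 5 vehicle mice for 738 genes above (5.24%) and 2312 genes below (16.4%). Single mice bore on the counts: 100, 111 and 288 genes were higher without mouse 6-5, 6-6 or 1-9, and 801 and 963 were lower without 6-5 or 6-6.

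**Figure D1:**
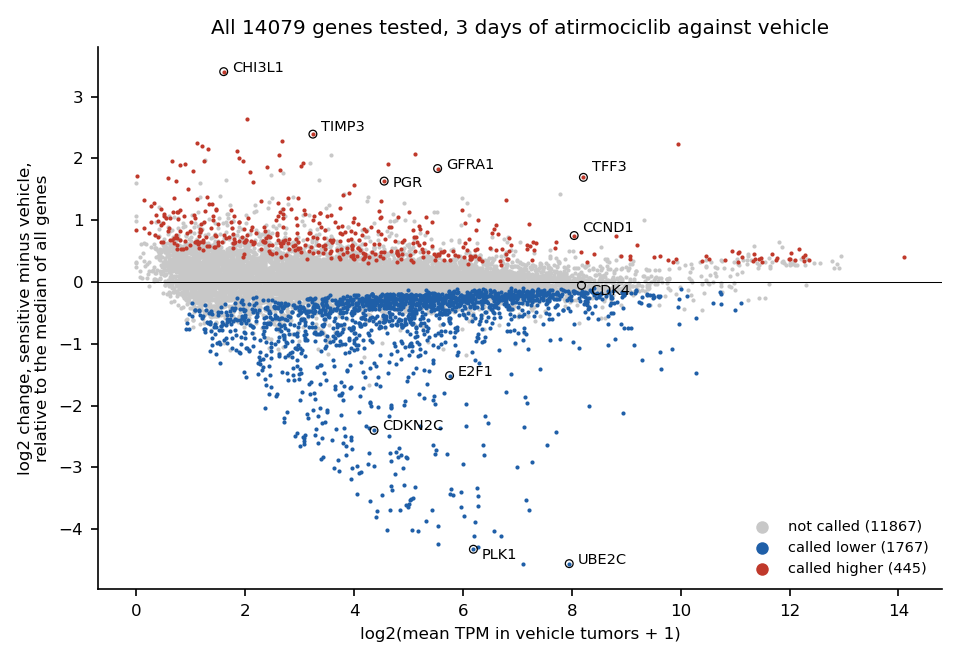
Each point is 1 of 14079 genes, with log2 of the mean vehicle TPM plus 1 on the x axis and the log2 change, sensitive minus vehicle and relative to the median of all genes, on the y axis. The 1767 genes called lower reach -4.57, while most of the 445 genes called higher lie under 1. Named genes are ringed.

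The kinase complex that the drug targets changed little at the RNA level, apart from its cyclins. CDK4 had 276, 279, 278, 330 and 282 TPM in the vehicle mice and 267, 248 and 275 TPM in the sensitive mice. All 3 sensitive mice lay below the vehicle mice, by a margin that was not called (-0.06 ± 0.07, adjusted p = 0.217). CDK6, the other kinase that D-type cyclins activate, was at 0.390 TPM or less in every mouse, and the cyclin D2 gene CCND2 was listed at 0, so neither was tested. Cyclin D1, the product of CCND1, had 295, 237, 259, 301 and 222 TPM in vehicle and 361, 450 and 449 TPM in sensitive tumors. The groups did not overlap, and CCND1 was the 1 member of 8 in its list that rose (0.75 ± 0.14, adjusted p = 0.00621). Cyclin D3 went the other way. CCND3 had 31.6, 28.9, 34.2, 35.1 and 27.2 TPM in vehicle and 20.9, 17.4 and 19.4 TPM in sensitive tumors, again without overlap (-0.60 ± 0.13, adjusted p = 0.00388). RB1, which encodes RB itself, fell from 30.9 to 33.9 TPM across vehicle mice to 21.1 to 26 TPM (-0.41 ± 0.10). MNAT1 and CCNH, which encode the assembly factor and cyclin of the CDK-activating kinase, changed by -0.36 and -0.25, whereas its kinase gene CDK7 (0.13) and the cyclin C gene CCNC (0.04) were not called. The calls of MNAT1 and CCNH ended without mouse 6-5 (adjusted p = 0.0730 and 0.0841), and that of CCNH without mouse 6-6 too (adjusted p = 0.0607). For MNAT1 and CCNH together, the alternatives gave adjusted p of 9.95e-04 to 0.234.

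Genes of CDK inhibitors were lower or uncalled, and none of 8 rose. CDKN2C encodes p18, which binds CDK4 and CDK6 and blocks them; it lies on chromosome 1 (50960745 to 50974633, GRCh38). It had 18.3, 18.3, 20.2, 20.5 and 21.0 TPM in vehicle and 2.93, 2.53 and 2.85 TPM in sensitive tumors. The sensitive mice were at 14.1% of the vehicle mean and within a narrow band (-2.40 ± 0.13, adjusted p = 1.97e-08). CDKN2D, for the related inhibitor p19, changed by -1.40 ± 0.19 (adjusted p = 9.90e-05). CDKN3, a phosphatase that acts on CDK1 and CDK2 and is made late in the cycle, changed by -3.94 ± 0.29. CDKN1B, for p27, changed by -0.37 ± 0.13 (adjusted p = 0.0336); this call ended without mouse 1-2, 1-9, 6-5 or 6-6 (adjusted p = 0.0671, 0.0738, 0.177 and 0.110), and the alternatives gave 0.00313 to 0.177. CDKN2A, for p16, had 8.22 to 22.0 TPM in vehicle and 10.8 to 14.6 TPM in sensitive tumors and was not called (-0.09), nor were CDKN2B (0.07) and CDKN1C (-0.13). CDKN1A, for p21, ranged widely in vehicle tumors, at 113, 91.9, 38.5, 109 and 59.9 TPM. The sensitive mice, at 55.7, 32.4 and 41.8 TPM, overlapped the lowest of them, mouse 1-5, and CDKN1A was not called (-0.77 ± 0.31, adjusted p = 0.0796) except without mouse 1-5 and in some other fits (adjusted p 0.00275 to 0.307 over all alternatives).

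The E-type and A-type cyclins, which act with CDK2 after CDK4, fell with nearly all of their partners. Of 9 tested genes, 8 fell and none rose, with a median change of -1.62. CCNE2, for cyclin E2, had 12.5, 12.1, 14.6, 12.6 and 14.5 TPM in vehicle and 1.04, 1.57 and 1.62 TPM in sensitive tumors, and CCNA2, for cyclin A2, had 20.5 to 39.3 TPM and 1.73, 1.11 and 1.68 TPM. CCNE1, for cyclin E1, had 14.9, 12.5, 10.7, 13.9 and 10.9 TPM in vehicle and 3.52, 2.44 and 3.62 TPM in sensitive tumors (-1.62 ± 0.22, adjusted p = 1.45e-04). None of the 3 genes overlapped between groups, and CCNA2 was at 4.81% of its vehicle mean. CDC25A, the phosphatase that switches CDK2 on, changed by -2.28 ± 0.24. CDK2 itself changed by -0.82 ± 0.11 (adjusted p = 8.85e-05), from 32.6 to 36.8 TPM to 15.3 to 20.2 TPM. FBXO5, an inhibitor of the anaphase-promoting complex that lets cyclins build up, changed by -1.71, and CKS1B and CKS2, small CDK subunits, by -1.06 and -1.42. The exception was SKP2, which marks p27 for destruction (-0.26, adjusted p = 0.140; called without mouse 1-5, and 0.0121 to 0.384 over all alternatives).

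Of 19 transcription factors of the switch and their partners, 10 fell and none rose (median -0.38). FOXM1, a driver of mitotic genes, had 157, 140, 114, 168 and 131 TPM in vehicle and 14, 6.47 and 13.2 TPM in sensitive tumors. MYBL2, the B-Myb subunit that turns MuvB into an activator, had 162 to 236 TPM and 25.4, 20.8 and 37.9 TPM. Both groups were far apart in each gene (-3.53 ± 0.30 and -2.64 ± 0.23). Of the E2F genes, E2F8 (-2.44), E2F2 (-2.27), E2F7 (-2.04) and E2F1 (-1.52) fell. E2F1 had 60.8, 42.9, 63.2, 58.3 and 39.8 TPM in vehicle and 24.7, 8.45 and 21.6 TPM in sensitive tumors, with mouse 6-5 lowest; without 6-5 it was not called (adjusted p = 0.0577, against 0.00763; 4.33e-05 to 0.0578 over all alternatives). E2F3 (0.23), E2F4 (0.09), E2F5 (0.20), E2F6 (-0.06) and the partner genes TFDP1 (-0.28) and TFDP2 (0.16) were not called. The pocket protein genes differed too: RBL1, for p107, fell by 1.21 ± 0.24 (adjusted p = 0.00236), while RBL2, for p130, overlapped between the groups (0.01 ± 0.11, adjusted p = 0.722). Of the MuvB genes, LIN9 (-0.70), LIN54 (-0.50) and LIN52 (-0.38) fell and LIN37 (-0.06) and RBBP4 (-0.01) were not called. The calls of LIN52 and LIN54 were lost without mouse 6-5 (adjusted p = 0.0501 and 0.0911) and that of LIN54 without 6-6 as well (adjusted p = 0.0761; 6.83e-04 to 0.187 for the pair over the alternatives).

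Falls in the DNA replication genes were broad and of moderate size. Of 26 genes of origin licensing and firing, 22 fell (median -1.08), and of 27 genes of the replication fork, 22 fell (median -0.79), with none higher in either list. The origin recognition complex was split. ORC1, which is made anew in each cycle, and ORC6 changed by -1.82 and -1.79, while the core subunits ORC2 (0.09), ORC3 (-0.14), ORC4 (-0.10) and ORC5 (-0.10) were the 4 licensing genes not called. MCM10, which helps to open the replicative helicase, had 8.37, 5.86, 7.10, 9.51 and 6.09 TPM in vehicle and 0.495, 0.0900 and 0.625 TPM in sensitive tumors. TICRR, an origin firing factor, changed by -2.20, the licensing inhibitor gene GMNN by -2.02, and CDC6, the loader of the helicase, by -2.16. The helicase genes themselves changed less, for example MCM6 by -1.39 ± 0.31, MCM2 by -1.03 ± 0.29 and MCM7 by -0.74 ± 0.19; these 3 calls ended without mouse 6-5 (adjusted p = 0.0519, 0.140 and 0.0922), and the count in the list was 15 without that mouse. At the fork, PCNA, the sliding clamp, had 132, 93.3, 111, 138 and 109 TPM in vehicle and 44.3, 29.1 and 43.2 TPM in sensitive tumors (-1.50 ± 0.20). FEN1, the flap endonuclease, changed by -1.65, and PRIM1, the primase subunit, by -1.25. The 5 fork genes not called were POLA1 (-0.32), POLE (-0.21), CHTF18 (-0.13), RFC1 (-0.09) and POLD2 (-0.08).

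Genes of nucleotide supply and of recombination repair were also lower. Of 13 deoxynucleotide genes 8 fell. RRM2, the cycle-regulated subunit of ribonucleotide reductase, had 60.3 to 82.4 TPM in vehicle and 4.10, 1.08 and 5.24 TPM in sensitive tumors, or 4.78% of the vehicle mean. Its constant partner gene RRM1 changed by -0.97 ± 0.16, and TYMS (thymidylate synthase), TK1 (thymidine kinase) and DTYMK (thymidylate kinase) changed by -3.0, -2.29 and -1.26. Of 30 genes of homologous recombination and the Fanconi anemia pathway, 22 fell and none rose (median -0.91). They included EXO1 (-2.76), a nuclease that opens DNA ends, and BRCA1, which had 11.9 to 14.6 TPM in vehicle and 5.91, 2.72 and 4.51 TPM in sensitive tumors. Of 19 genes that copy chromatin marks and DNA methylation, 17 fell (median -0.75). HMGB2, a chromatin protein of dividing cells, had 172, 131, 106, 184 and 145 TPM in vehicle and 10.5, 7.83 and 11.2 TPM in sensitive tumors (-3.69 ± 0.27). UHRF1, which guides DNA methylation to new strands, changed by -1.98, and EZH2, the histone H3 lysine methyltransferase, by -1.47 ± 0.14. The 2 not called were DNMT3A (0.35) and ASF1A (-0.10). The count of falls was 10 without mouse 6-5 or 6-6 and 12 with quantile normalization.

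The mitotic genes fell furthest and without exception in several lists. All 16 genes of mitotic entry fell (median -2.72), as did all 23 mitotic kinesins and spindle proteins (median -2.83) and all 10 tested genes of cytokinesis (median -2.90). These 3 counts stayed complete in every fit that left out 1 mouse, and with both scalings. PLK1, the kinase that drives entry into mitosis, had 79.6, 67.5, 54.8, 93.6 and 65.4 TPM in vehicle and 2.06, 1.91 and 3.50 TPM in sensitive tumors. AURKA, the spindle pole kinase, had 73.3 to 90.2 TPM and 10.8, 11.4 and 12.5 TPM, the lowest adjusted p of the list (2.27e-10). Remaining RNA differed between them: PLK1 was at 3.45% of its vehicle mean, CCNB1 (cyclin B1) at 12.5% and AURKA at 14.2%. WEE1, which restrains CDK1, fell as well (-1.12 ± 0.20). KIF20A, a kinesin of cytokinesis, had 16.5 to 27.3 TPM in vehicle and 0.255, 0.315 and 0.730 TPM in sensitive tumors, 1.85% of the vehicle mean. ANLN, which anchors the contractile ring, changed by -3.68, and RACGAP1, which helps to position it, by -2.78 ± 0.16.

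**Figure D2:**
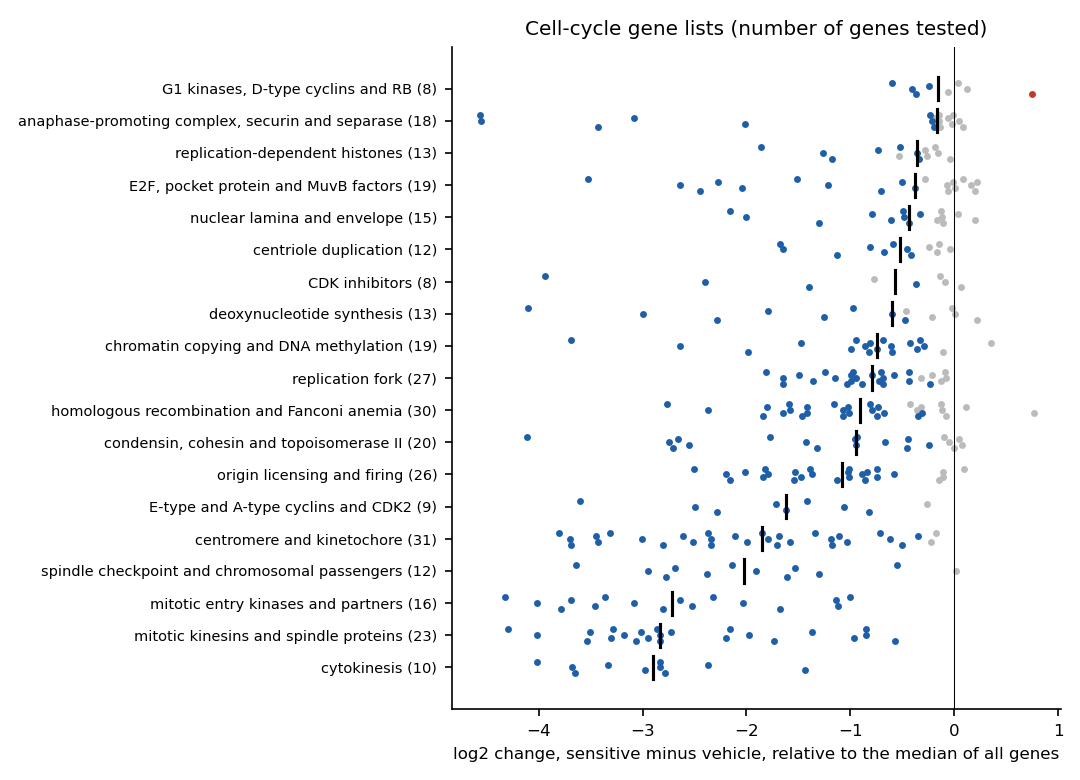
Each point is a tested gene, placed by its log2 change, sensitive minus vehicle and relative to the median of all genes, in 19 cell-cycle lists. Blue genes were called lower, the red one higher and grey ones neither, and black bars are list medians, from -0.15 for the G1 kinases to -2.90 for cytokinesis.

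At the kinetochore, which ties chromosomes to the spindle, 29 of 31 genes fell (median -1.85). CENPA, the histone that marks centromeres, had 17.6 to 23.6 TPM in vehicle and 0.370, 0.600 and 0.360 TPM in sensitive tumors. Its chaperone gene HJURP changed by -3.70 and NDC80, the microtubule binder, by -3.69. Listed under its older name CASC5, the scaffold gene KNL1 changed by -2.52. NSL1 (-0.18) and CENPC (-0.22) were not called. Of 12 spindle checkpoint and chromosomal passenger genes 11 fell, among them BUB1 (-2.95), TTK (-2.38) and CDCA8 (-2.78), and MAD1L1 did not (0.02 ± 0.11, adjusted p = 0.769). For the anaphase-promoting complex, the ubiquitin ligase that ends mitosis, the partners fell far and the core subunits little. PTTG1, the securin, had 149, 116, 112, 160 and 145 TPM in vehicle and 3.56, 3.44 and 7.14 TPM in sensitive tumors. UBE2C, the ligase's ubiquitin-conjugating enzyme, had 255, 244, 202, 289 and 244 TPM and 8.46, 5.45 and 15.5 TPM. CDC20, its activator, changed by -3.43, ESPL1, the separase, by -3.08 and UBE2S by -2.01. The other 3 of 8 falls in that list of 18 were small and in core subunits: ANAPC11 (-0.19), CDC23 (-0.22) and CDC27 (-0.23). The calls of ANAPC11, CDC23 and CDC27 were lost under both scalings, under median-of-ratios at adjusted p = 0.177, 0.0752 and 0.143. They were also lost without mouse 6-5 (adjusted p = 0.110, 0.146 and 0.182) or 6-6 (adjusted p = 0.0947, 0.125 and 0.172), and those of CDC23 and CDC27 without some vehicle mice (0.0536 to 0.0948). The remaining 10 core genes were not called, such as CDC16, at 68.6 to 72.7 TPM in vehicle and 66.3 to 67.5 TPM in sensitive tumors.

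Genes that hold and pack chromosomes fell in 15 of 20 cases (median -0.94). TOP2A, the topoisomerase that untangles chromosomes in mitosis, had 68.2 to 130 TPM in vehicle and 4.56, 2.94 and 6.84 TPM in sensitive tumors. Condensin genes fell strongly (NCAPG by 2.71 and NCAPD2 by 1.77 on the log2 scale) and the cohesin ring gene RAD21 less so (-0.95 ± 0.10). Of 12 centriole genes 8 fell, led by PLK4 (-1.68), the kinase that starts centriole duplication, and STIL (-1.65), its partner; the count was 4 without mouse 6-5. Of 15 genes of the nuclear lamina and envelope 9 fell, and the genes of the B-type lamins fell by unequal amounts. LMNB1 had 93.8, 75.8, 70.2, 92.6 and 84.3 TPM in vehicle and 19.1, 13.9 and 17.9 TPM in sensitive tumors, or 20.3% of the vehicle mean, and LMNB2 changed by -0.79 ± 0.13. LBR, the lamin B receptor, changed by -2.0 and TMPO, a lamina-associated protein, by -1.30. Of 13 tested histone genes 7 fell, 4 without mouse 6-5. H2AFX, for the histone H2A.X, had 121 to 152 TPM in vehicle and 34.4 to 37.7 TPM in sensitive tumors, and H2AFZ, for H2A.Z, had 547 to 738 TPM and 213 to 265 TPM. The 5 clustered histone genes called were HIST1H1C (-0.34), HIST1H2BC (-0.36), HIST1H2AE (-0.52), HIST1H2BG (-0.74) and HIST2H2AC (-1.18, from 4.07 to 9.51 TPM to 1.48 to 2.04 TPM), and they share near-identical copies among which reads may be divided. The calls of HIST1H2BG, HIST1H2AE and HIST1H2BC ended when mouse 6-5 was left out (adjusted p = 0.0634, 0.136 and 0.209), that of HIST1H2BC also without 1-2, 1-4, 1-9 or 6-6 (0.0626 to 0.0792) or with either scaling (0.0673 and 0.0871), and that of HIST2H2AC in libraries A alone (adjusted p = 0.0666). Over all alternatives, adjusted p for these 4 genes went from 0.00119 to 0.361.

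Short words known from E2F and MuvB binding sites were searched for in promoters, where a match is a description and not a shown binding site. To show where such words lie, 10 promoters of genes that fell, chosen after the values were seen, are given in RefSeq's GRCh38.p14 sequence. The 6 in the first group come from genes of mitosis and CDK partners that fell, and capitals mark the CHR word, which is TTTGAA or its reverse complement TTCAAA. Each runs from 130 bases before the RefSeq start to 30 bases from it. They lie at chr16:23678759-23678918 (PLK1, plus strand), chr15:59105016-59105175 (CCNB2, plus), chr10:128126394-128126553 (MKI67, minus), chr2:26785926-26786085 (CENPA, plus), chr12:6851257-6851416 (CDCA3, minus) and chr9:89311065-89311224 (CKS2, plus).
PLK1: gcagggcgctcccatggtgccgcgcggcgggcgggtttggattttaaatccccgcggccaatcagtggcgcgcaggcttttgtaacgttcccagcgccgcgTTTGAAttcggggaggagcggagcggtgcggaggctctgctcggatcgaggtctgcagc
CCNB2: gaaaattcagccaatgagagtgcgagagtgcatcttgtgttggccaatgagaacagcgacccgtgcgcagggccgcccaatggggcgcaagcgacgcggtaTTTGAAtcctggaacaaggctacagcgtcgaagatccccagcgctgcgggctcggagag
MKI67: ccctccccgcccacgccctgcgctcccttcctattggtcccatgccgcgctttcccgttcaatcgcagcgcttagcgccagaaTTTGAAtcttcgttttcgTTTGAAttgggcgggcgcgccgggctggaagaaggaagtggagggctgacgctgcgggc
CENPA: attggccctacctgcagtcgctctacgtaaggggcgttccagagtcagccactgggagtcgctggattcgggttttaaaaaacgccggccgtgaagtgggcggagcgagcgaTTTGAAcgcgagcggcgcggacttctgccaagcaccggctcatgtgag
CDCA3: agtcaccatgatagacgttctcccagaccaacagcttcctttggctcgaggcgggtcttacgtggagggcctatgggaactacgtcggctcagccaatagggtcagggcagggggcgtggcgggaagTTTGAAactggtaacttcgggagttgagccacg
CKS2: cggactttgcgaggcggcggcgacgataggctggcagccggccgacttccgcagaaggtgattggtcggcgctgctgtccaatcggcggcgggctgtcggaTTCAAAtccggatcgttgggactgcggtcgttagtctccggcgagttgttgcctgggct

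The word began 29 bases before the start in PLK1, CCNB2, MKI67 and CKS2 (position -29), at -18 in CENPA and at -3 in CDCA3, and MKI67 held another at -47. The second group comes from E2F1 itself and 3 replication genes, with E2F words in capitals, which are TTTCCCGC, TTTCGCGC, TTTGCCGC and TTTGGCGC or their reverse complements. In MCM6 a pair of them overlap, TTTGGCGC at -90 and GCGCGAAA at -86. They lie at chr20:33686356-33686515 (E2F1, minus strand), chr2:135876414-135876573 (MCM6, minus), chr20:5126593-5126752 (PCNA, minus) and chr11:65261832-65261991 (POLA2, plus), the last for a subunit of DNA polymerase alpha that changed by -1.35 ± 0.22.
E2F1: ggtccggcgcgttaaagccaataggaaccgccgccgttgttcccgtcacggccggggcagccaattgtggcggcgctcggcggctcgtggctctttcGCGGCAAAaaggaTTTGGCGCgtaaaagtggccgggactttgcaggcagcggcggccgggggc
MCM6: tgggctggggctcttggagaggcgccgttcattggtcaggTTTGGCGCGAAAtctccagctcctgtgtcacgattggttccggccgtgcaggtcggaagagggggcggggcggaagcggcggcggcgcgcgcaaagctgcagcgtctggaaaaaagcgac
PCNA: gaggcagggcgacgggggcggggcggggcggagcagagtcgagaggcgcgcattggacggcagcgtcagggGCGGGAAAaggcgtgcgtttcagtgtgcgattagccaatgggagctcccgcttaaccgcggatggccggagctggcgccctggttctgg
POLA2: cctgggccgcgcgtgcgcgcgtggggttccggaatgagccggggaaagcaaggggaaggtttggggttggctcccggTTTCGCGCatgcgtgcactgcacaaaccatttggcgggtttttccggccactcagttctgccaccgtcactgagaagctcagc

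Across the table, 10207 of 12414 tested protein-coding genes (82.2%) matched a RefSeq promoter of 250 bases before to 50 after the start. The CHR word, on either strand, was in 51.5% of promoters of genes that fell by at least 2 log2 units (53 of 103, 95% exact binomial interval 41.4 to 61.4%). It was in 25.2% of those that fell by 1 to 2, in 11.3% of those that fell by less, and in 8.26% of genes not called. The share was 9.36% in all genes tested and 15.4% in all 27305 promoters of the table. The words of strongly lowered genes lay close to the start: in the 50 bases before it, there were 31.1 CHR words per 100 promoters of genes that fell by at least 2 and 0.975 per 100 of genes not called. E2F words were also more frequent in promoters of genes that fell than of genes not called. They were in 15.5% of promoters of genes that fell by at least 2, in 21.1% of those that fell by 1 to 2 and in 9.57% of those that fell by less. The share was 4.62% in genes not called (5.52% of genes tested, 3.33% of all promoters). The intervals of the first 2 shares overlapped (9.15 to 24% and 14.8 to 28.6%), so their order is not settled. CCAAT boxes, the letters CCAAT on either strand, were in 35.4% of promoters of genes not called and 68.9% of those that fell by at least 2 (35.7% of all promoters). GC boxes, GGGCGG on either strand, were in 70.1% and 72.8% of these groups (44.6% of all promoters). Each kind of word was searched alone, so matches of different kinds may overlap. The check is void for genes called higher, since 76.6% of them matched a promoter.

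**Figure D3:**
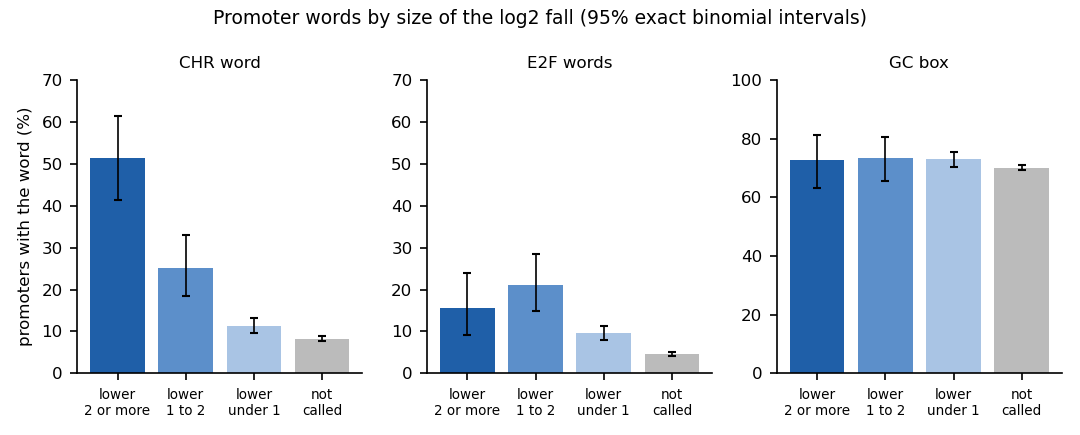
Bars give the percentage of promoters that hold the CHR word, an E2F word or a GC box, for genes called lower by at least 2, by 1 to 2 or by under 1 log2 unit and for genes not called. Error bars are 95% exact binomial intervals. The CHR share falls from 51.5% to 8.26% across the 4 groups, and the GC box share stays between 70.1% and 73.5%.

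Hormone-responsive genes were among the rises. Of 29 estrogen receptor targets 9 rose and 1 fell (median 0.64), beside 3.16% of all genes higher and 12.6% lower. The rises numbered 3 without mouse 6-5 or 6-6 and 12 without 6-4. TFF3, a secreted trefoil peptide, had 229, 258, 241, 491 and 261 TPM in vehicle and 595, 1346 and 827 TPM in sensitive tumors. The groups did not overlap, and vehicle mouse 1-6 stood closest to mouse 6-4. PGR, the progesterone receptor gene on chromosome 11 (101029624 to 101130524, GRCh38), had 12.3, 21.8, 14.5, 30.2 and 33.6 TPM and 35.0, 99.2 and 73.6 TPM. Mouse 6-4 was just above the highest vehicle mouse. PDZK1, a scaffold protein induced by estrogen, had 22.7, 15.7, 20.9, 95 and 15.6 TPM in vehicle and 39.3, 161 and 188 TPM in sensitive tumors, so that mouse 6-4 lay below vehicle mouse 1-6. TFF1, another trefoil peptide, was spread from 139 to 2540 TPM across vehicle mice and had 1894, 3837 and 3503 TPM in sensitive mice (2.24 ± 0.65, adjusted p = 0.0367). The rises also held RERG (0.94), GREB1 (1.01), CELSR2 (1.13), BCL2 (0.58) and CCND1. The calls of PGR, PDZK1, TFF1, GREB1, CELSR2 and BCL2 ended without mouse 6-5 or 6-6 (adjusted p = 0.0675 to 0.193), and those of PDZK1 and TFF1 without some vehicle mice too (0.0571 to 0.0863). For these 6 genes the alternatives gave adjusted p of 1.70e-04 to 0.193. The 1 fall was ELOVL2, a fatty acid elongase (-0.81 ± 0.25, adjusted p = 0.0316; 0.00387 to 0.163 over all alternatives and not called without mouse 1-2, 1-5, 1-6, 1-9, 6-5 or 6-6). ESR1, the estrogen receptor gene itself, was not called. It had 61.1, 93.9, 193, 61.9 and 156 TPM in vehicle and 134, 96.2 and 81.8 TPM in sensitive tumors, and the sensitive mice lay inside the vehicle range.

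Lineage genes changed in small numbers. Of 18 luminal factors and keratins none rose and 3 fell, beside 3.16% of all genes higher and 12.6% lower. GATA3, a luminal transcription factor, had 459, 427, 436, 368 and 395 TPM in vehicle and 367, 243 and 320 TPM in sensitive tumors, where mouse 6-4 was just below mouse 1-6 (-0.37 ± 0.12, adjusted p = 0.0211). ELF5, a progenitor factor, changed by -0.47 and KRT7 by -0.85. All 3 calls ended without mouse 6-5 or 6-6 (adjusted p = 0.0559 to 0.181) and with quantile normalization (0.0697 to 0.0995), and that of KRT7 also without 1-4, 1-5 or 1-9 (0.0584 to 0.0707). FOXA1 (0.02), SPDEF (0.06) and the keratin genes KRT8, KRT18 and KRT19 were not called. In the list of basal and progenitor genes, KRT17 and KRT15 rose by 1.18 each and the aldehyde dehydrogenase gene ALDH1A3 fell by 0.69. KRT17 had 4.24, 8.49, 2.79, 6.75 and 5.12 TPM in vehicle and 10.7, 9.15 and 17.9 TPM in sensitive tumors. KRT15 overlapped, since vehicle mouse 1-5 had 13.3 TPM and mouse 6-4 had 8.16 TPM. These calls ended without 1 to 6 of the 8 mice (adjusted p up to 0.203), for ALDH1A3 without mouse 6-5 only (0.114). Secreted mucins rose with the trefoil peptides: 4 of 13 genes, with none lower. MUC2, a gel-forming mucin, had 2.51, 1.45, 0.0900, 2.12 and 0.345 TPM in vehicle and 5.38, 8.01 and 12.3 TPM in sensitive tumors. MUC5B, another, had 36.5, 29.6, 6.25, 32.9 and 13.5 TPM and 61.6, 86.2 and 75.1 TPM. Both separated the groups, though the call of MUC5B ended without mouse 6-5 (adjusted p = 0.0623).

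**Figure D4:**
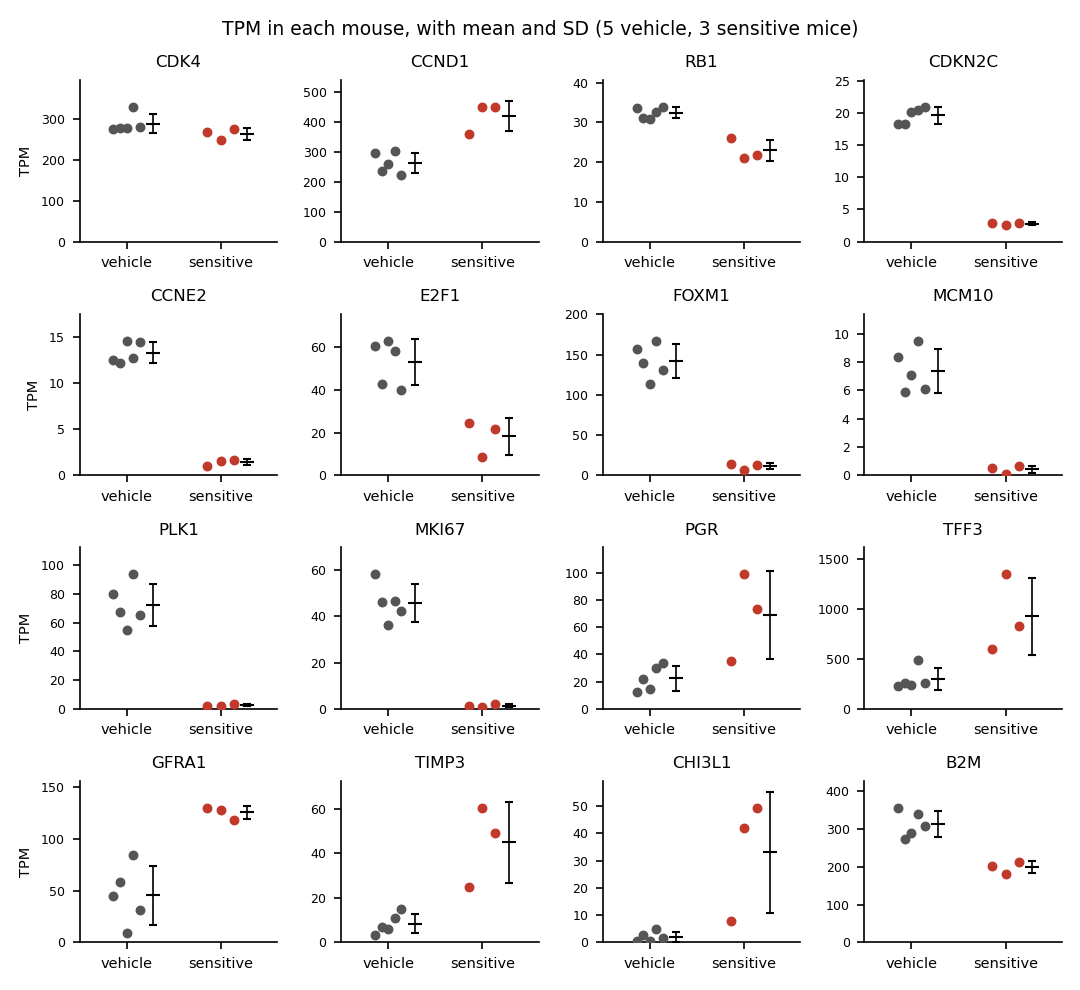
TPM of 16 genes in each of 5 vehicle mice (grey) and 3 sensitive mice (red), with the mean and SD beside the points; every y axis starts at 0 and has its own range. Cell-cycle genes such as CDKN2C and PLK1 sit in a narrow low band in the sensitive mice, while PGR, TFF3, TIMP3 and CHI3L1 are lowest of the 3 in mouse 6-4.

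Over 6 signaling lists 14 of 102 tested members were called (13.7%), beside 15.7% of all genes in either direction. By direction, 10 of the 102 were higher and 4 lower, where 3.16% of all genes were higher and 12.6% lower. GFRA1, a co-receptor for the neurotrophic factor GDNF and partner of RET, was the 1 of 15 receptor genes that rose. It had 44.6, 58.6, 8.82, 84.1 and 30.9 TPM in vehicle and 130, 128 and 118 TPM in sensitive tumors. The sensitive mice were close together and above a widely spread vehicle group (1.83 ± 0.47, adjusted p = 0.0227), and leaving out any 1 of the 3 ended the call (adjusted p = 0.0509, 0.0910 and 0.0721; 5.60e-04 to 0.158 over all alternatives). FGFR3 fell by 0.37 and was not called without mouse 6-5 (adjusted p = 0.0641). ERBB2 had 279 to 500 TPM in vehicle and 405, 199 and 228 TPM in sensitive tumors and was not called (-0.41 ± 0.22, adjusted p = 0.160). In insulin and IGF signaling, the adaptor gene IRS1 had 17.5, 23.4, 15.5, 29.2 and 21.9 TPM in vehicle and 25.9, 52.9 and 55.9 TPM in sensitive tumors. The binding protein gene IGFBP2 fell from 204 to 305 TPM to 167 to 179 TPM (-0.42 ± 0.12). The kinase subunit gene PIK3R1 (0.40) and the kinase gene AKT1 (-0.20) were called as well, but AKT1 was not with either scaling (adjusted p = 0.110 and 0.221). None of these 4 calls held without mouse 6-6 (adjusted p = 0.0526 to 0.139), those of IRS1, PIK3R1 and AKT1 did not without 6-5 (0.0862 to 0.236), and those of PIK3R1 and AKT1 did not without 1-2 (0.0527 and 0.0722). Of 22 genes of ERK feedback and the immediate early response, which follow growth factor signaling, EGR3 was the 1 that was called. It had 3.50, 3.34, 2.39, 14.6 and 3.02 TPM in vehicle and 7.55, 47.2 and 34.3 TPM in sensitive tumors, again with mouse 6-4 below mouse 1-6, and it was not called without 6-5 or 6-6 (adjusted p = 0.138 and 0.107). MYC rose by 0.63, and its antagonist gene MXD3 fell from 16.6 to 27.5 TPM to 2.56, 3.02 and 4.05 TPM (-2.49 ± 0.16, adjusted p = 1.15e-07). MLXIPL, a glucose-sensing factor (1.16), TGFB1 (0.91), the SMAD repressor gene SKIL (0.48), the Notch ligand gene JAG2 (0.48) and the Wnt feedback gene AXIN2 (1.12) were called higher. Without mouse 6-5 or 6-6, none of MYC and these 5 was called (adjusted p = 0.0718 to 0.240), and MLXIPL, TGFB1, JAG2 and AXIN2 also lost their calls without some other mice (0.0510 to 0.0943). ID1, a target of BMP signaling, was spread too widely to be called, at 0.415 to 25.3 TPM in vehicle and 8.04, 44.1 and 51.6 TPM in sensitive tumors.

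The lists of death, damage and senescence genes shared no common direction. Of 22 genes induced by DNA damage 7 fell and 1 rose (median -0.22), beside 12.6% of all genes lower and 3.16% higher. In this list 18 genes lay below the median change of all genes and 4 above it. The falls numbered 4 with either scaling, 4 without mouse 6-5 and 10 without 1-5. POLH, a polymerase that bypasses lesions, had 7.21 to 7.90 TPM in vehicle and 4.17, 4.79 and 4.00 TPM in sensitive tumors. FDXR, a mitochondrial reductase, changed by -0.49 and PHLDA3, an inhibitor of AKT, by -0.75, and the death receptor gene FAS changed by -0.88 from a level of 1.94 to 3.79 TPM. The other falls were BAX, DDB2 and AEN (-0.38, -0.46 and -0.55), and the rise was BTG2, an antiproliferative gene, from 47.2 to 124 TPM to 158 to 183 TPM (0.92 ± 0.25). The calls of BAX, DDB2, AEN and BTG2 ended without mouse 6-5 (adjusted p = 0.0776 to 0.200), and the last 3 also without 6-6 (0.0854 to 0.106) or some other mice (0.0530 to 0.0772), within 5.11e-04 to 0.200 over the alternatives. MDM2 (-0.10) and GDF15 (-0.05) were not called. In the BCL2 family, BCL2, which blocks apoptosis, had 44.8, 41.1, 34.6, 49.5 and 42.1 TPM in vehicle and 58.9, 59.0 and 62.8 TPM in sensitive tumors. The pro-apoptotic gene BAD changed by -0.23, and BMF (-0.73) was not called. The calls of BCL2 and BAD ended without mouse 6-5 or 6-6 (adjusted p = 0.0743 to 0.174), and that of BAD without 1-2, 1-4 or 1-6 (0.0525 to 0.0614). Of 22 genes of the senescence-associated secretion, only 9 passed the filter. IL6, CXCL8, IL1A and IL1B were among the 13 that did not. HMGB1, a nuclear protein that senescent cells lose, fell from 237 to 287 TPM to 149 to 161 TPM (-0.69 ± 0.07, adjusted p = 6.83e-06), and it is also a member of the chromatin list. VEGFA rose, while the lysosomal marker gene GLB1 (0.09) was not called. In the integrated stress response, DDIT4, an inhibitor of mTOR, had 101, 127, 95.6, 123 and 102 TPM in vehicle and 176, 327 and 308 TPM in sensitive tumors (1.32 ± 0.21, adjusted p = 0.00102), and PHGDH, of serine synthesis, had 38.5 to 75.2 TPM and 27.1, 20.4 and 22.6 TPM. They were the 2 of 27 genes called.

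Of 29 genes of hypoxia and glycolysis 5 rose and none fell, beside 3.16% of all genes higher: VEGFA, GPI, PFKFB3, PDK1 and ADM. VEGFA, the vascular growth factor, had 42.2, 39.4, 35.2, 26.1 and 36.4 TPM in vehicle and 42.9, 65.1 and 84.1 TPM in sensitive tumors, with mouse 6-4 level with mouse 1-2. PFKFB3, which speeds glycolysis, had 27.4, 21.3, 12.7, 30.2 and 16 TPM and 21.7, 79.8 and 69.5 TPM. Mouse 6-4 lay inside the vehicle range and the other two above it. None of the 5 was called without mouse 6-5 or 6-6 (adjusted p = 0.0811 to 0.247), nor were GPI, PFKFB3, PDK1 and ADM without some vehicle mice (0.0520 to 0.0784), whereas 15 of the 29 were called without 6-4. Of 23 interferon response genes none rose and 3 fell, beside 12.6% of all genes lower. They were OAS3, USP18 and IFI35 (-0.80, -0.42 and -0.40), and 1 was called with either scaling and none without mouse 6-5. OAS3, a sensor of double-stranded RNA, had 24.7 to 34.4 TPM in vehicle and 18.0, 13.4 and 17.4 TPM in sensitive tumors; the calls of OAS3, USP18 and IFI35 ended without mouse 6-5 (adjusted p = 0.0620, 0.136 and 0.203), and those of the other two without several more mice (0.0519 to 0.0934). In antigen presentation, B2M, which encodes beta-2 microglobulin, had 356, 275, 288, 339 and 308 TPM in vehicle and 201, 182 and 214 TPM in sensitive tumors, without overlap. The immunoproteasome genes PSMB8 (-0.45) and PSMB9 (-0.91) and the transporter gene TAP1 (-0.41) fell too, and the chaperone gene CD74 rose from a level of 0.255 to 1.01 TPM. The calls of TAP1 and CD74 ended without mouse 6-5 (adjusted p = 0.136 and 0.0889) or 6-6 (adjusted p = 0.162 and 0.129), and that of TAP1 without 1-9 (adjusted p = 0.0538). Of 14 NF-kB genes 1 was called, CD83 (-0.42), and not in any fit without 1-4, 1-5, 1-6, 1-9, 6-4, 6-5 or 6-6 (adjusted p = 0.0515 to 0.204).

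Most called metabolic genes fell, mainly in modest steps. Over 6 metabolic lists 36 of 145 tested members fell and 1 rose, beside 12.6% of all genes lower and 3.16% higher. Of 28 serine, folate and one-carbon enzymes 8 fell, and 5 with either scaling or without mouse 6-5 or 6-6. MTHFD2, the mitochondrial folate enzyme of growing cells, changed by -0.45 ± 0.07 and GMPS, of guanine nucleotide synthesis, by -0.51. Of 18 enzymes of the tricarboxylic acid cycle 7 fell (3 and 2 with median-of-ratios and quantile scaling, and 3 and 2 without mouse 6-5 and 6-6), led by MDH1 (-0.32 ± 0.06) and IDH2, which had 356 to 490 TPM in vehicle and 308, 202 and 215 TPM in sensitive tumors. Nuclear genes of oxidative phosphorylation fell in 10 of 29 cases, all by 0.27 or less on the log2 scale. The largest was SDHA, from 109 to 123 TPM to 80.9 to 104 TPM, not called without mouse 6-5 (adjusted p = 0.0617). With median-of-ratios scaling or quantile normalization the count was 1, and it was 0 without mouse 6-5 and 14 without 1-5. Of 22 cholesterol synthesis genes 7 fell, most clearly EBP, a sterol isomerase, from 95.5 to 160 TPM to 56.7 to 66.5 TPM. The counts with the 2 scalings were 3 and 2, and 1 was called without mouse 6-5 or 6-6. In lipid storage, THRSP rose by 1.08 and the acyltransferase gene GPAM fell by 0.28, each not called without 5 or more of the 8 mice in turn (adjusted p = 0.0521 to 0.195). Of 19 genes of fatty acid oxidation and the peroxisome 3 fell and none rose, near the share of all genes lower, and the list median was 0.01. Among the 3, HADH had 112 to 135 TPM in vehicle and 74.4 to 88.6 TPM in sensitive tumors (-0.55 ± 0.09, adjusted p = 2.25e-04). CPT1A, the gatekeeper of mitochondrial uptake, had 171 to 179 TPM and 133 to 142 TPM.

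Among genes of protein making and turnover, called cytosolic ribosomal protein genes rose and called members of the other lists fell. Over these 6 lists 13 of 170 tested members rose and 40 fell, beside 3.16% of all genes higher and 12.6% lower. Of 30 cytosolic ribosomal protein genes 13 rose and none fell, and the range over the list was narrow, from 0.16 to 0.53 (median 0.34). RPS18 had 4898, 4965, 3673, 4944 and 4618 TPM in vehicle and 5733, 6694 and 6573 TPM in sensitive tumors, and vehicle mouse 1-5 was lowest. With quantile normalization the list's median was 0.01 with 5 called, and 2 and 3 were called without mouse 6-5 and 6-6. Summed over 86 cytosolic ribosomal protein symbols, the share of all TPM was 19.9 to 25.9% in vehicle and 27.8 to 30.1% in sensitive mice. Of 28 mitochondrial ribosomal protein genes 15 fell (median -0.18), such as MRPL13 from 62.1 to 79.9 TPM to 48.3 to 51.6 TPM, but 3 and 1 were called with the 2 scalings and 2 and 4 without mouse 6-5 and 6-6. Ribosome biogenesis genes hardly moved, with NOP10 (-0.20) the 1 of 30 called, and not without mouse 6-5 (adjusted p = 0.0534). Of 30 proteasome subunits 19 fell (median -0.18; 4 and 3 fell with the 2 scalings, and 5 and 8 without mouse 6-5 and 6-6). PSMC3, an ATPase of the regulatory cap, had 140, 121, 126, 143 and 117 TPM in vehicle and 92.1, 72.6 and 86.7 TPM in sensitive tumors and kept its call in every alternative (adjusted p up to 0.0349). Of 20 aminoacyl-tRNA synthetases 4 fell by 0.12 to 0.29 on the log2 scale, none called with either scaling. The median of that list was 0.01, with 11 members above the median change of all genes and 9 below it.

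Matrix genes held the largest rises of the comparison. Of 18 tested genes 5 rose and none fell, beside 3.16% of all genes higher, and 2 rose without mouse 6-5 or 6-6. CHI3L1, a secreted chitinase-like protein on chromosome 1 (203178931 to 203186749, GRCh38), had 0.605, 2.66, 0.535, 4.80 and 1.62 TPM in vehicle and 7.89, 42.0 and 49.4 TPM in sensitive tumors. TIMP3, an inhibitor of matrix proteases, had 3.50, 7.11, 6.05, 10.9 and 14.9 TPM and 24.9, 60.5 and 49.3 TPM. SERPINE2, a protease inhibitor, had 5.00, 5.76, 1.27, 7.92 and 5.66 TPM and 8.70, 40.6 and 25.6 TPM. In all 3 genes mouse 6-4 stood above every vehicle mouse but well below 6-5 and 6-6. CHI3L1 and TIMP3 kept their calls in every alternative (adjusted p up to 0.0414 and 0.00612), and SERPINE2, FN1 (1.16) and COL18A1 (0.65) lost theirs without mouse 6-5 or 6-6 (adjusted p = 0.0504 to 0.0906). Of 16 integrins and laminins LAMA3 fell by 0.75 and of 20 junction genes F11R and CTNNA1 fell by 0.20 and 0.18, none of them called without 6-5 or 6-6 (adjusted p = 0.0528 to 0.193). These were the only falls of the 2 lists, beside 12.6% of all genes called lower. Of 13 S100 genes 5 fell (median of the list 0.09), but 2 and 3 did with the 2 scalings, and 2, 3 and 3 without mouse 6-5, 6-6 and 6-4. Among the 5 were S100A16 (1073, 999, 1104, 912 and 952 TPM, then 737, 475 and 603 TPM) and S100A10 (169 to 335 TPM, then 70.1, 119 and 143 TPM), the latter not called without mouse 6-4 (adjusted p = 0.0700). Of 15 ABC transporters the export pump gene ABCC3 (1.36) and ABCA2 (0.36) rose, but not without 6-5 or 6-6 (adjusted p = 0.0716 to 0.134).

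Among the 25 largest falls with separate groups were genes of no list: MKI67 (-4.24), the proliferation marker Ki-67, NMU (-4.03), a neuropeptide gene, PBK (-3.86), a mitotic kinase, NEK2, a centrosomal kinase, NUSAP1 (-4.30), a spindle-associated protein, and IQGAP3. NMU had 43.1, 28.2, 29.3, 41.4 and 34 TPM in vehicle and 0.895, 1.68 and 1.07 TPM in sensitive tumors. EPR-1 (-4.03) is known as an antisense partner of BIRC5 (-3.64), which encodes survivin, and since no source used here says whether counting used strand, reads of the pair may not be told apart. The 25 largest rises added BASP1 (2.15), a membrane-bound signaling protein, GP2 (1.95), CP (1.9), which encodes ceruloplasmin, OLFM4 (1.88), KCNQ3 (1.79), COL27A1 (1.78), GPT (1.62), an alanine aminotransferase, GRIK3 (1.57), CASP14 (1.35), CGNL1 (1.30), KIF12 (1.16), EDARADD (1.14) and ATP8B2 (1.12). GPT had 2.62 to 3.98 TPM in vehicle and 6.42, 16.2 and 15.7 TPM in sensitive tumors. KCNQ3 had 0.525 to 1.66 TPM and 1.98, 10.5 and 7.62 TPM. OLFM4, KCNQ3 and GRIK3 lost their calls without mouse 6-5 (adjusted p = 0.167, 0.0699 and 0.0576), and OLFM4 and KCNQ3 without 6-6 (adjusted p = 0.0804 and 0.0539). CASP14, KIF12, EDARADD and ATP8B2 also lost theirs when 6-5 was left out (adjusted p = 0.095, 0.0587, 0.131 and 0.0598), as did CASP14, EDARADD and ATP8B2 for 6-6 (0.179, 0.083 and 0.0663) and CASP14 for 1-2 (0.0546). Of the most abundant called genes, RPS27, RPL7A, RPL37A, RPS4X and RPS18 rose and S100A14, PTMA, MYL6, CFL1 and UBB fell. RPS27, RPL7A, RPL37A and RPS4X were not called with quantile normalization (adjusted p = 0.245 to 1) or without mouse 6-5 or 6-6 (0.0543 to 0.181), and S100A14, MYL6 and CFL1 were not called without 6-5 or 6-6 (0.0543 to 0.138). PTMA, a chromatin-associated acidic protein, had 1890 to 2265 TPM in vehicle and 1339 to 1465 TPM in sensitive tumors. PTMA and the ribosomal protein genes have many processed copies in the genome, so that their levels are less certain. Summed over all genes called lower, the share of TPM was 13.6 to 14.6% in vehicle and 9.57 to 10.6% in sensitive mice.

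All 3 sensitive mice lay below the vehicle range in the 19 cell-cycle lists. In several lists with called rises mouse 6-4 lay inside the vehicle range. They include the 4 given below and the lists of ERK feedback and of Notch and Wnt genes. Relative to the vehicle mean, the median of the mitotic entry genes was -2.85, -3.01 and -2.70 in mice 6-4, 6-5 and 6-6, against -0.35 to 0.31 across vehicle mice. For the kinetochore it was -1.44, -2.26 and -1.81 and for origin licensing -1.11, -1.50 and -0.87, so that mice also differed within the falls. The median of the estrogen receptor targets was 0.17, 0.78 and 0.73, and vehicle mouse 1-6 was at 0.41, above mouse 6-4. For mucins and trefoil peptides it was 0.06, 0.78 and 1.12, with vehicle mouse 1-6 at 0.53. For hypoxia and glycolysis it was -0.06, 0.48 and 0.59, and for matrix genes 0.13, 0.49 and 0.63. Of the 445 genes called higher, 361 had their smallest rise in mouse 6-4. Of the 1767 genes called lower, 713 had their smallest fall in 6-4, 752 in 6-6 and 302 in 6-5. Without mouse 6-4, 507 genes were higher and 1910 lower. Without mouse 6-5 the counts were 100 and 801, of which 94 and 799 were among the 445 and 1767, and without 6-6 they were 111 and 963, of which 108 and 954 were. In the 8 fits that left out 1 mouse each, 72 rises and 752 falls were called every time.

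**Figure D5:**
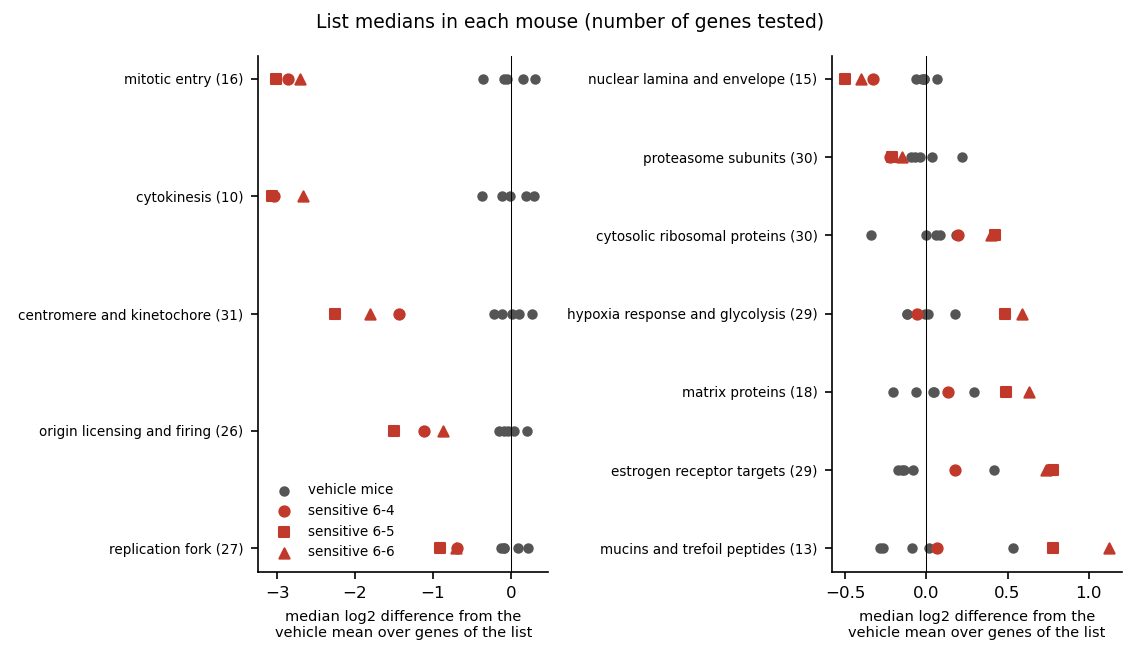
Median over the genes of a list of the log2 difference from the vehicle mean, relative to all genes, for 5 vehicle mice (grey) and sensitive mice 6-4, 6-5 and 6-6 (red); the 2 panels have different x ranges. In the cell-cycle lists all 3 sensitive mice lie left of the vehicle mice, and in the hypoxia, matrix, estrogen and mucin lists mouse 6-4 lies among them.

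Most markers of other cell types were near 0 in every mouse, as read against the human annotation. Host cells of a xenograft are mouse cells, so these values do not measure how much host tissue the tumors held. Of 10 fibroblast markers 9 were under 0.360 TPM in all 8 mice, DCN and POSTN were listed at 0, and COL1A1 (5.48 to 12.7 TPM) made up nearly the whole sum, 7.81 to 13.2 TPM in vehicle and 5.76 to 8.36 TPM in sensitive mice. Of 10 leukocyte markers, CD3E and NKG7 were listed at 0 and PTPRC was at 0.0150 TPM or less; the sum was 5.03 to 8.58 TPM in vehicle and 7.61 to 10.4 TPM in sensitive mice, with CD68 the largest part. The 9 endothelial markers summed to 2.32 to 3.63 TPM in vehicle and 2.08 to 3.06 TPM in sensitive mice, the 6 adipocyte markers to 0.625 to 1.26 TPM and 1.21 to 1.70 TPM, and the 6 erythroid markers to at most 1.25 TPM and 1.80 TPM. ADIPOQ and DES were listed at 0. None of the tested markers of these lists was called. The 8 muscle markers summed to 140 to 312 TPM in vehicle and 167 to 206 TPM in sensitive mice, of which MB, the myoglobin gene, made up nearly all, and every contractile marker was at 1.08 TPM or less. In bulk tumors a lower value can mean fewer cells that express a gene or less RNA of it per cell, and these cannot be told apart here.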

How the data were processed

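RNA was measured by sequencing in 26 libraries from 13 mice. The comparison was between groups that held 16 of these libraries, and all 13 mice entered the fit. The authors deposited 1 table of TPM values (length-corrected transcript abundances) with 30332 entries; the tools listed per the submitters' processing notes are STAR, RSEM, HTSeq and FastQC, with builds GRCh38 and GRCm38 and no versions. No source used here says how human and mouse reads were divided. The entry "unknown" (1.49 to 5.51 TPM) was left out. The step at which libraries A and B of a mouse were split is not given either. Whether mice of a group shared a cage or day is not stated, so p-values measure the spread between these mice.

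From the deposited values, log2(TPM + 1) was averaged over libraries A and B of each mouse. Genes with a mean of at least 1 TPM in at least 3 mice were tested (14079). All 13 mice entered 1 fit with 3 groups, which share an estimate of the spread (limma 3.58.1 with trend, R 4.3.3, Benjamini-Hochberg adjustment over all genes tested, threshold 0.05). Changes are printed relative to the median fitted change, and SE and p as fitted. The code was tested on simulated data. Promoters were counted in Python 3.11.15 with exact binomial intervals (scipy 1.17.1), which cover counting error only. Gene positions are from GENCODE 29. Symbols that are numbers (23 entries, 17 tested) could not be read as genes.

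The members, gene lists and tests were chosen with earlier results of these data known. The rule for names covered every tested gene of the lists on G1 kinases, CDK inhibitors, E-type and A-type cyclins and E2F factors, up to 5 genes of each other list in order of p, all of a list with under 4 called or under 4 not called, the 25 largest rises and falls with separate groups, and the 5 most abundant called genes in each direction; not every gene it covered is printed. Genes named beyond that rule, such as those with printed promoters, ORC1 to ORC6, the MCM genes, PDZK1, ELOVL2, DDB2, AEN and ERBB2, were chosen after their values were seen. Alternatives covered pseudocounts, filters, scaling, libraries, replicate blocks, variance models and leaving out each mouse. Some genes of the lists are not reported here.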

Additional observations from a re-analysis of the deposited data

Results flagged for a closer look

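In 18 of 255 genes named in the text and 1 of 58 list medians, 1 of the 5 vehicle mice stood apart by Dixon's test at the 95% level, which chance alone meets in about 1 of 20 groups. Mouse 1-5 was the one in 9 of the 19 cases and mouse 1-6 in 6. Mouse 1-5 was low for the ribosomal protein genes RPS18 (3673 TPM, others 4618 to 4965), RPS27 (13811, others 17716 to 18982) and RPS4X (4189, others 4907 to 5167), and for S100A14 (1867, others 2208 to 2327) and MXD3 (16.6, others 24.5 to 27.5). It was high for KRT19 (3637, others 2112 to 2289), KRT15 (13.3, others 3.42 to 5.44), ALDH1A3 (7.89, others 3.96 to 4.63) and S100A10 (335, others 169 to 210). Mouse 1-6 was high for CDK4 (330 TPM, others 276 to 282), TFF3 (491, others 229 to 261), PDZK1 (95 TPM, others 15.6 to 22.7), EGR3 (14.6, others 2.39 to 3.5) and EBP (160 TPM, others 95.5 to 111). In the same mouse the median of the estrogen receptor targets was 0.41 on the log2 scale, against -0.18 to -0.08 in the other 4. The remaining cases were PRIM1 in mouse 1-4 (25.6 TPM), TAP1 in mouse 1-2 (23.3 TPM), and ORC4 (26.5 TPM) and PIK3R1 (24.3 TPM) in mouse 1-9.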

How the results depend on the processing

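Counts moved with the scaling, the mice and the variance model, and the cause was not tested. Against 445 genes higher and 1767 lower, median-of-ratios scaling gave 771 and 1066. There were 930 and 984 with quantile normalization and 1023 and 3390 with a weight for each mouse. The vehicle and sensitive mice alone gave 239 higher, and libraries A alone 237. Leaving out 1 mouse gave 100 to 542 higher and 801 to 1910 lower. With the mouse number as a replicate block (3 pairs, fewer mice) 57 were higher and 496 lower. Numbers 4, 5 and 6 are shared by the groups. The deviations of same-numbered mice correlated across genes at 0.08, 0.14 and 0.32, and those of differently numbered mice at -0.26 to 0.19. The same-numbered values were not all over 0.1, so the numbers were not taken to pair the mice. These values do not settle whether the mice were paired. Of the 445 rises, 17 were called in every alternative that tests them, and of the 1767 falls 437. Of the genes named, 8 of 57 called higher and 92 of 148 called lower kept their call throughout, and none reversed. The CHR share among all genes called lower was 15.7%. It was 19.98% with median-of-ratios scaling, 21.4% with quantile normalization, 18.4% in the 2 groups alone, 17.7% in libraries A, 29.1% with the replicate block of 3 pairs, 12.5% with weights and 15% to 23.5% when 1 mouse was left out. The E2F share was 11.2%, and 9.20% with the library letter as a replicate block in 26 libraries, 16.1% with the block of 3 pairs and 8.46% with weights. Depth is unknown, so the table alone gives no detection limit for genes listed at 0.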
